A study of Solanum lycopersicum with 36 samples.

Results

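Of the 461 circular RNA entries with values in the tomato leaf table, 7 were placed on the chloroplast genome, and they were chosen by that chromosome name alone. A circular RNA is an RNA whose ends are joined, so that sequencing reads cross a joining point that the linear transcript does not have. The 7 entries held 5 distinct sequences, and after joining identical and nested sequences they were 4 of 434 signals, named here ciRNA14/ciRNA15, ciRNA22/ciRNA29, ciRNA55 and ciRNA56/ciRNA57. All 7 carried the name ciRNA, which usually stands for a circular RNA made from an intron, as did 57 of the 461 entries. The other 404 entries were named circRNA and all lay on nuclear chromosomes.

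Leaves came from wild-type plants of the cultivar 'Jinlingmeiyu', 24 days old when the watering regimes were set apart. In the combination treatment, plants were without water for 3 days and then held at 38 °C, still dry. Heat plants were watered and held at 38 °C, drought plants were dry at 26 °C, and control plants were watered at 26 °C. The labels give 48 h of treatment, the study's methods state that leaves of an earlier time were sequenced, and each treatment had 3 libraries described as biological replicates. Since whole leaf was used, fewer chloroplast-rich cells and less chloroplast RNA per cell cannot be told apart.

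The chloroplast is the photosynthetic organelle of the leaf cell and keeps a small genome of its own. Many of its introns belong to group II, a class of folded introns that begin with letters close to GTGCG (in RNA, U for T), are cut out as a branched loop, the lariat, and carry a conserved hairpin called domain V near their 3′ end. Most plant chloroplast genomes also hold an inverted repeat, so that part of the sequence is present in more than 1 copy. The table gives no coordinates for its entries, and none of the 7 could be placed in a gene here.

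The joining points are shown because they carry the feature that the 7 entries shared and that their selection did not use. Each sequence below joins the last 20 bases of the entry to its first 20, 5′ to 3′ and in the letters of the deposited sequence. Capitals mark GTGCG.
ciRNA14 and ciRNA15: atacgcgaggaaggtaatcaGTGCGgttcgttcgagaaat
ciRNA22: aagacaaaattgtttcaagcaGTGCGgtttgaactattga
ciRNA29: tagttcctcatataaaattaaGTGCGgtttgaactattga
ciRNA55: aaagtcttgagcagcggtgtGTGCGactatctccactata
ciRNA56 and ciRNA57: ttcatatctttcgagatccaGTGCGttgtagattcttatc

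GTGCG stood at base 1 in 5 entries and at base 2, after an a, in ciRNA22 and ciRNA29. None of the 454 nuclear entries had it at base 1 or base 2, and 38 of them held it anywhere on the given strand. The 50 nuclear entries named ciRNA all began with GT, the usual first letters of a nuclear intron, but 0 of them went on to GTGCG. The match is a description of these letters and was not tested as a splice site.

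The last 80 bases of each entry were searched for the longest stem of perfectly paired bases with a loop of 3 to 30 bases. The stem was 8 base pairs in ciRNA55, ciRNA56 and ciRNA57, 7 in ciRNA14 and ciRNA15, 6 in ciRNA29 and 5 in ciRNA22. Identical entries have the same stem, so these are the stems of 5 distinct sequences. Among the 454 nuclear entries the median was 5, while 8.81% had 7 or more and 1.76% had 8 or more. The place of each stem near the 3′ end follows from the search, which covered only the last 80 bases. The stem-loop of ciRNA56 and ciRNA57, bases 465 to 498 of 530, is shown because its stem was as long as any among the 7. Its paired arms are in capitals.
Stem-loop of ciRNA56 and ciRNA57: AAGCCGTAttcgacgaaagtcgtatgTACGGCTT

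ciRNA29 (174 bases) was the start of ciRNA22 (222 bases), and the 48 bases that ciRNA22 had beyond it are in capitals below. Both entries therefore began at the same base and differed in where they ended.
ciRNA22: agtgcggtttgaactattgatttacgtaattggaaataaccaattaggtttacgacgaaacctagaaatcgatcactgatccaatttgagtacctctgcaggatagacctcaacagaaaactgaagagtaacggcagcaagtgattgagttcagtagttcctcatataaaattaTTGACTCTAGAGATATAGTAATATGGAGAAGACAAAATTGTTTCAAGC

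The last 100 bases of ciRNA55, the single most abundant entry, are shown for its stem of 8 pairs (bases 272 to 292 with the loop), with the paired arms in capitals.
ciRNA55, bases 251 to 350: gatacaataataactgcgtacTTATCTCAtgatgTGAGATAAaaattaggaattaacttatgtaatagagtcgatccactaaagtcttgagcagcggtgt

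The 4 signals were otherwise unlike in sequence. The longest run of letters shared between any pair of them, on either strand, was 7 to 12 bases. No nuclear entry shared a run of 20 bases with a chloroplast entry, and 2 shared a run of 15. The entries measured 174 to 561 bases with a median of 530, against 98 to 1695 bases and a median of 351.5 in nuclear entries. This median of 530 counts both entries of each identical pair. The 5 distinct sequences measured 174, 222, 350, 530 and 561 bases, and their middle value, 350, lay close to the nuclear median. The GC content of the entries was 33.7% to 39.6% with a median of 39.2%, which again counts both entries of each identical pair. Over the distinct sequences the middle GC value was 37.4%. The median was 42.5% in nuclear entries and 34.0% in the nuclear entries named ciRNA.

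Abundance is given in FPKM, fragments scaled to the length of the entry and to the depth of the library, as computed by the authors. The 7 chloroplast entries took ranks 1 to 5, 7 and 8 of the 461 by mean FPKM over the 12 libraries. ciRNA55 averaged 1364 FPKM, ciRNA29 1270 and ciRNA22 1216, followed by ciRNA14 with 370 and ciRNA15 with 357. ciRNA56 and ciRNA57, at 238 and 199 FPKM, stood below 1 nuclear entry, circRNA48 of chromosome 12, which averaged 267 FPKM. After these the next entry, circRNA2 of chromosome 6, averaged 32.0 FPKM, and the median over nuclear entries was 0.569 FPKM. All 7 were above 0 in each of the 12 libraries, as were 22 of the 454 nuclear entries.

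**Figure D1:**
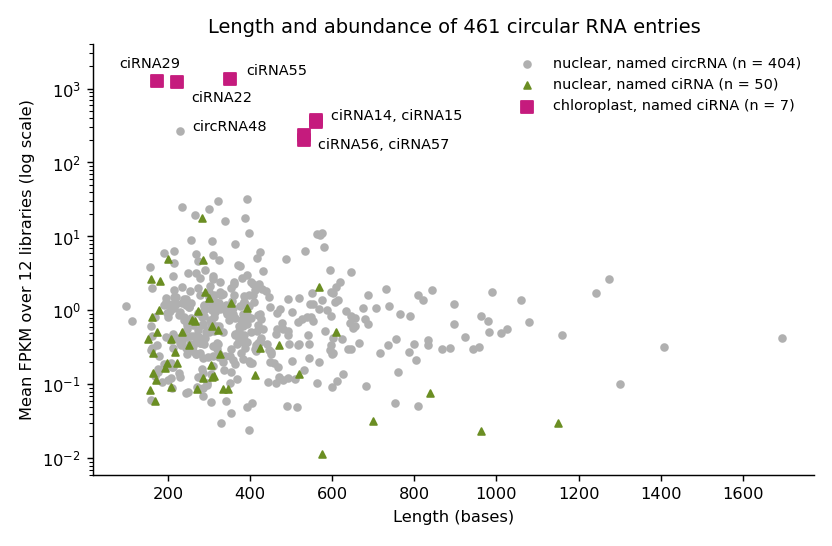
Mean FPKM over 12 libraries (log scale) against length in bases for the 461 entries, with 1 point per entry. The 7 chloroplast entries (squares) sit between 199 and 1364 FPKM, and circRNA48 is the only nuclear entry among them.

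FPKM multiplied by length moved in steps of 1 size per library, and 84.8% to 93.3% of the values above 0 were whole steps within 0.01, while all were whole twelfths of a step. Read as fragments, the steps gave between 26842 (control replicate 1) and 100509 (control replicate 3) chloroplast fragments per library, and between 1398 and 45959 for a single entry. The library sizes they imply were 20688450 to 34706458 fragments, with control replicate 3 apart at 56406112. At this depth counting error is small, and the spread between replicates sets the precision. The coefficient of variation within a treatment was taken per entry as the median of the 4 treatments. It was 11.1% to 21.97% in the chloroplast entries with a median of 16.7%, against a median of 54.1% over the 22 nuclear entries above 0 in all libraries. These nuclear entries averaged at most 32.0 FPKM, against 199 FPKM or more in the chloroplast entries. The contrast is thus also one of abundance.

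The 7 entries held most of the summed FPKM in every library. Their share of the summed FPKM of all 461 entries was 89.0%, 92.2% and 92.3% at combination, 91.4%, 91.6% and 84.8% at heat, 76.9%, 70.2% and 65.5% at drought and 76.4%, 88.6% and 85.9% in control. The means were 91.2% ± 1.86 at combination, 89.3% ± 3.85 at heat, 70.9% ± 5.71 at drought and 83.6% ± 6.43 in control (SD, n = 3 each). Drought and control overlapped only through control replicate 1 and drought replicate 1, heat overlapped with control, and the combination libraries lay above all of drought and control. The share is a sum over entries chosen beforehand and was given no test. Whether the FPKM count only fragments across the joining point is not given in the sources used here. The share therefore cannot be read as a share of circles alone.

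The chloroplast sum itself averaged 6563 ± 396 FPKM at combination, 4872 ± 885 at heat, 4094 ± 688 at drought and 4526 ± 1123 in control (SD, n = 3 each). The nuclear sum averaged 633 ± 108 FPKM at combination, 573 ± 159 at heat, 1663 ± 271 at drought and 837 ± 159 in control. The lower share at drought thus stood beside a higher nuclear sum, and much of that sum was circRNA48. This entry had 28.4, 22.9 and 30.2 FPKM at combination, 51.2, 0 and 42.9 at heat, 523, 1255 and 914 at drought and 68.6, 190 and 77.0 in control. With circRNA48 left out, the drought share was 84.4%, 87.6% and 80.01%, inside the control range of 77.6% to 91.5%.

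**Figure D2:**
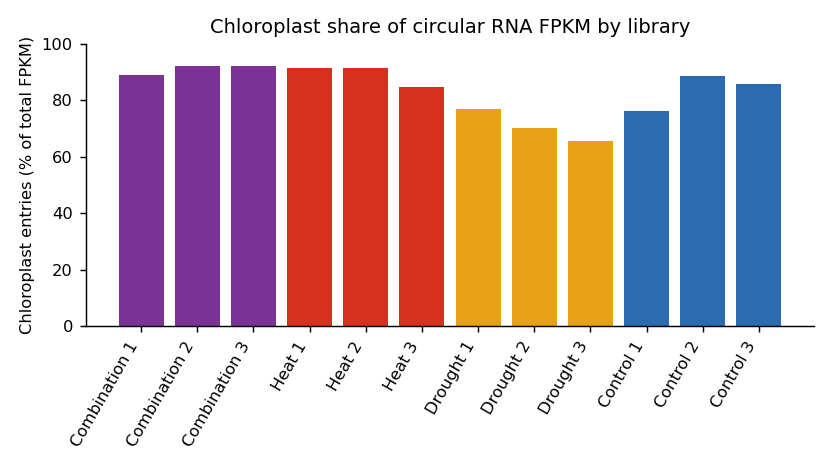
Share of the summed circular RNA FPKM held by the 7 chloroplast entries, in percent, with 1 bar per library. The 3 drought bars reach 65.5% to 76.9%, the 6 bars at 38 °C 84.8% to 92.3%.

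Temperature divided the 4 signals. Across both 38 °C treatments against both 26 °C treatments, 2 of the 4 signals passed the test, ciRNA22/ciRNA29 higher and ciRNA55 lower (but at a log2 fold change of 0.05 when scaled by the nuclear sum), while 1.65% of the 303 signals tested passed (0.33% higher and 1.32% lower). As single entries 4 of 7 passed, ciRNA22, ciRNA29 and ciRNA56 higher and ciRNA55 lower, against 2.74% of 328 entries (1.22% higher and 1.52% lower). The median log2 fold change was 0.23 over the 4 signals and 0.66 over all signals tested. Tests were made with limma on log2(FPKM + 0.0161), and p-values were adjusted over all signals or entries tested. Here the fit took each signal's spread wholly from the trend of spread on abundance over the whole table. The SD used was 0.21 for ciRNA22/ciRNA29 and 0.26 for ciRNA55, below their own 0.30 and 0.36, so the p from the signal's own spread (8 residual degrees of freedom) is given beside each main p of the 4 signals below. Without the trend no chloroplast entry passed in any comparison. The median SD over all entries was 3.07.

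ciRNA22/ciRNA29, the nested pair, was the largest signal at 38 °C. Its summed FPKM was 3656, 3994 and 4710 at combination and 3830, 3062 and 2259 at heat, against 1510, 1461 and 1210 at drought and 1025, 1786 and 1336 in control. Every library at 38 °C lay above every library at 26 °C. The log2 fold change of 38 °C over 26 °C was 1.35 (SE 0.12, adjusted p = 6.1e-26 from limma and 0.0058 from its own spread). An exact permutation test of 6 against 6 libraries, chosen after the values were seen, gave p = 0.0022, two-sided. This is the smallest that its 924 splits can give, so it restates the separation and adds no further support.

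The rise of this signal was seen in each pair of treatments that differed in temperature. The log2 fold change was 1.60 for combination vs control (SE 0.17, adjusted p = 4.2e-18 from limma and 0.020 from its own spread), and it did not pass when only these treatments were fitted (adjusted p = 0.098). For combination vs drought it was 1.56 (SE 0.17, adjusted p = 4.0e-17 from limma and 0.018 from its own spread). Heat vs control gave 1.15 (SE 0.17, adjusted p = 7.7e-09 from limma) and heat vs drought 1.10 (SE 0.17, adjusted p = 2.0e-08 from limma), but from its own spread the adjusted p was 0.18 and 0.14, and with only the treatments compared 0.57 and 0.17. The values of its entries, which overlap in sequence, follow. ciRNA22 had 1834, 1946 and 2276 FPKM at combination and 1801, 1517 and 1077 at heat, against 750, 706 and 618 at drought and 549, 855 and 667 in control. ciRNA29 had 1822, 2049 and 2434 FPKM at combination and 2029, 1546 and 1182 at heat, against 760, 755 and 592 at drought and 476, 931 and 669 in control. For both, the libraries at 38 °C and 26 °C did not overlap. Control and drought libraries enter several of these comparisons, which are not independent of each other.

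ciRNA55 went the other way. Its FPKM was 1151, 1016 and 836 at combination and 924, 683 and 912 at heat, against 1829, 1836 and 1072 at drought and 1357, 2422 and 2328 in control. The 38 °C and 26 °C libraries overlapped only through drought replicate 3, which lay below combination replicate 1. The log2 fold change of 38 °C over 26 °C was -0.94 (SE 0.15, adjusted p = 1.1e-07 from limma), -0.38 after scaling by median ratios and 0.05 after scaling by the nuclear sum. At drought circRNA48 made up a large part of that nuclear sum. From the own spread of ciRNA55 the adjusted p was 0.074, and the exact permutation test of 6 against 6 libraries gave p = 0.0043. Its fall was 1.24 on the log2 scale for heat vs control (log2 fold change -1.24, SE 0.22, adjusted p = 9.5e-07 from limma and 0.19 from its own spread). Combination vs control gave -0.99 (SE 0.22, adjusted p = 0.00073 from limma and 0.32 from its own spread), and this call was lost without control replicate 3 or combination replicate 3 (-0.87 and adjusted p = 0.097 from limma without either). Scaled by median ratios or by the nuclear sum it was -0.47 and -0.68 for heat vs control and -0.82 and -0.59 for combination vs control, past the threshold in none of these, and with only the treatments compared the adjusted p was 0.57 and 0.19.

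ciRNA56/ciRNA57 had 578, 703 and 601 FPKM at combination and 503, 406.5 and 499.5 at heat, against 355, 335 and 275 at drought and 241, 336 and 406.6 in control. The 2 temperatures met at a single point, heat replicate 2 and control replicate 3. The log2 fold change of 38 °C over 26 °C was 0.76 (SE 0.24), with an adjusted p = 0.078 from limma, which took an SD of 0.42 in place of its own 0.24. It passed after scaling by median ratios (1.31, adjusted p = 0.019 from limma) and by the nuclear sum (1.74, adjusted p = 4.3e-05). From its own spread the adjusted p was 0.040, and the exact permutation test of 6 against 6 libraries gave p = 0.0043. Of its entries, ciRNA56 passed limma by a narrow margin (log2 fold change 0.81, adjusted p = 0.0487), and ciRNA57 did not (0.69, adjusted p = 0.19), while from their own spread the adjusted p was 0.037 for both. ciRNA56 had 317, 367 and 330.3 FPKM at combination and 298, 211 and 291 at heat, against 190, 177 and 141 at drought and 127, 186 and 216 in control, and the temperatures overlapped at heat replicate 2 and control replicate 3.

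ciRNA14/ciRNA15 had 751, 923 and 770 FPKM at combination and 599, 471 and 468 at heat, against 832, 824 and 744 at drought and 632, 840 and 868 in control. The 3 heat libraries were below all 9 others, combination replicate 2 was above all libraries at 26 °C, and the other 2 combination libraries lay among them. For 38 °C over 26 °C the log2 fold change was -0.29 (SE 0.19, adjusted p = 0.60 from limma and 0.32 from its own spread), 0.27 after scaling by median ratios and 0.69 after scaling by the nuclear sum. The exact permutation test of 6 against 6 libraries gave p = 0.14. Heat vs control gave -0.60 with an adjusted p = 0.53 from limma and 0.21 from its own spread, and a log2 fold change of 0.17 after scaling by median ratios. The 4 exact tests of temperature were 1 family, and over the treatments 3 libraries against 3 cannot go below p = 0.1.

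**Figure D3:**
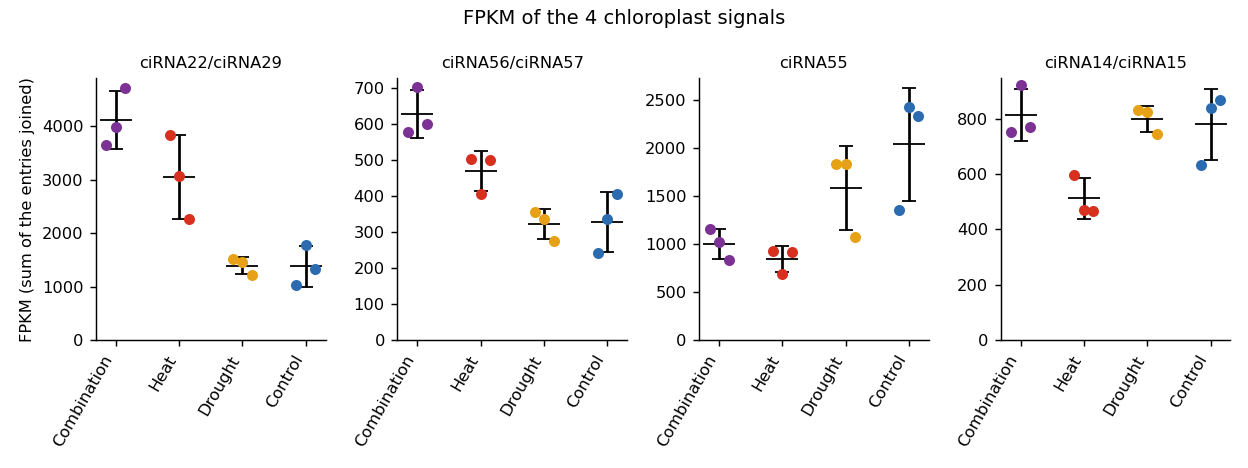
FPKM of the 4 chloroplast signals by treatment, with 1 point per library and a bar for the mean ± SD (n = 3). ciRNA22/ciRNA29 is at 2259 to 4710 FPKM in the libraries at 38 °C (combination and heat) and at 1025 to 1786 in those at 26 °C (drought and control), and ciRNA55 is at 683 to 1151 FPKM at 38 °C and at 1072 to 2422 at 26 °C, with an overlap at drought replicate 3.

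Between single treatments, the calls were these. For heat vs control and for combination vs control 2 of 4 signals passed, ciRNA22/ciRNA29 higher and ciRNA55 lower, against 0.99% and 0.66% of all signals tested. Heat vs drought gave the same 2 signals (ciRNA55 at -0.88, adjusted p = 0.0047 from limma and 0.37 from its own spread) against 1.32% of all signals, and this call of ciRNA55 was lost without heat replicate 2 (adjusted p = 0.054), drought replicate 1 (0.19) or drought replicate 2 (0.19). Its log2 fold change in heat vs drought was 0.06 after scaling by median ratios and 0.68 after scaling by the nuclear sum. As single entries 3 of 7 passed in each of these comparisons and in combination vs drought, ciRNA22 and ciRNA29 higher and ciRNA55 lower, against 1.22% of all entries for heat vs control, 0.915% for combination vs control, 2.44% for heat vs drought and 1.52% for combination vs drought. Combination vs drought gave 1 signal, ciRNA22/ciRNA29, against 0.66% of all signals, with ciRNA55 at -0.63 (adjusted p = 0.23 from limma and 0.68 from its own spread).

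Where temperature was the same, no chloroplast signal passed limma's test. For combination vs heat the log2 fold changes of the 4 signals ran from 0.25 to 0.67, all above 0, and 0.33% of all signals passed. At an unadjusted p under 0.05 there were 2 of them, against 3.96% of all signals, ciRNA22/ciRNA29 at 0.46 with a 95% interval of 0.12 to 0.79, and ciRNA14/ciRNA15 at 0.67 with 0.13 to 1.21. From their own spread the unadjusted p was 0.10 and the adjusted p 0.81 for ciRNA22/ciRNA29, and for ciRNA14/ciRNA15 they were 0.0022 and 0.34. After scaling by median ratios, all fold changes of this comparison moved by -0.60, which put 3 of the 4 signals below 0. For drought vs control 0.33% of all signals passed, and the chloroplast signals lay between -0.36 (ciRNA55, 95% interval -0.79 to 0.06) and 0.05, with none at an unadjusted p under 0.05 (3.63% of all signals). All 4 were below 0 after scaling by median ratios (-0.54 to -0.13), and after scaling by the nuclear sum (-1.36 to -0.95) ciRNA55 passed (adjusted p = 0.022 from limma). That scaling moved the 4 signals by -0.99, and a large part of the nuclear sum at drought was the single entry circRNA48. limma with weights on recovered fragments passed 1 signal for combination vs heat and 0 for drought vs control.

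The effect of water over both temperatures lay between -0.05 (ciRNA55) and 0.36 (ciRNA14/ciRNA15) on the log2 scale, but all 4 signals were below 0 after scaling by median ratios (-0.44 to -0.03) or by the nuclear sum (-0.64 to -0.22). No chloroplast signal passed, and 0.33% of all signals did. At an unadjusted p under 0.05 from limma there was 1, ciRNA22/ciRNA29 (0.038), against 4.29% of all signals. From their own spread the unadjusted p was 0.19 for ciRNA22/ciRNA29 (adjusted p = 0.94) and 0.010 for ciRNA14/ciRNA15 (adjusted p = 0.61). The interaction of heat and drought, which asks whether the step to 38 °C differed between dry and watered plants, was 0.42 to 0.62 for the 4 signals, -0.01 to 0.20 after scaling by median ratios and 1.24 to 1.45 after scaling by the nuclear sum. Both nuclear-sum ranges in this paragraph lean on circRNA48, a large part of that sum at drought. No chloroplast signal passed limma's test for the interaction, and 0 of 303 signals did. In limma ciRNA55 alone had an unadjusted p under 0.05 (0.043), against 3.63% of all signals. From their own spread the unadjusted p was 0.18 for ciRNA55 and 0.020 for ciRNA14/ciRNA15 (adjusted p = 0.9996 for both). With weights on recovered fragments 0 chloroplast signals passed in either comparison.

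**Figure D4:**
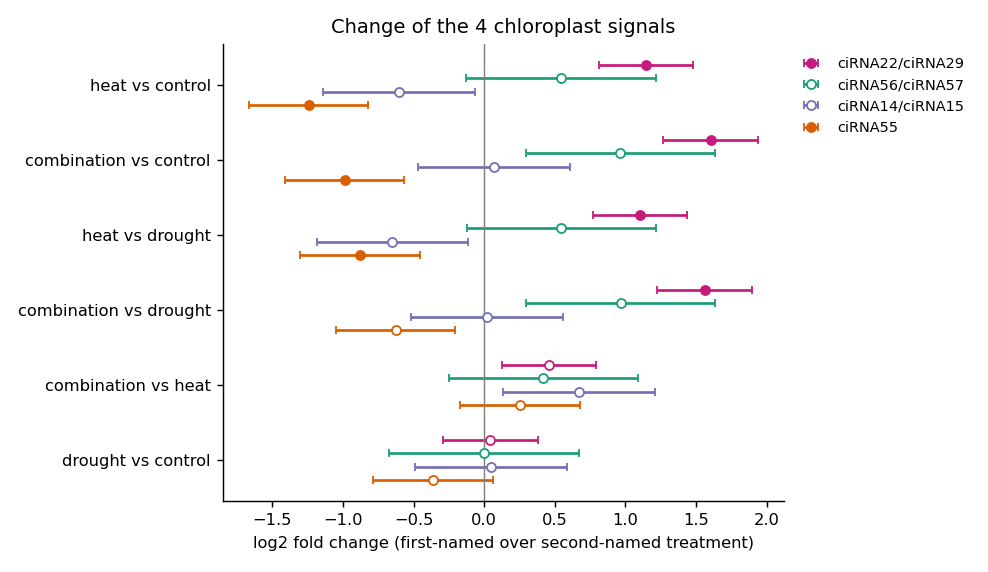
Log2 fold changes of the 4 chloroplast signals in the 6 comparisons between treatments, with 95% intervals from limma, first-named over second-named treatment. Filled points passed an adjusted p of 0.05, as ciRNA22/ciRNA29 (1.10 to 1.60) did in the 4 comparisons that differ in temperature.

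The scale of the libraries bears on these directions. Scaling by median ratios raised every log2 fold change of 38 °C over 26 °C by 0.56, and scaling by the nuclear sum raised it by 0.98. At drought a large part of the nuclear sum was circRNA48, with 523, 1255 and 914 FPKM of 1363, 1889 and 1739. A scaling without this entry was not made. ciRNA22/ciRNA29 and ciRNA56/ciRNA57 were higher at 38 °C under both scalings, while ciRNA55 was lower only under median ratios and ciRNA14/ciRNA15 under neither. A ratio of 2 signals in 1 library does not depend on this scale. ciRNA22/ciRNA29 over ciRNA55 was 3.18, 3.93 and 5.63 at combination and 4.15, 4.48 and 2.48 at heat, against 0.826, 0.796 and 1.13 at drought and 0.755, 0.737 and 0.574 in control. The ratios at 38 °C and 26 °C did not overlap. Their level depends on summing ciRNA22 and ciRNA29, which overlap in sequence. The pair of signals was chosen after its values were seen and its ratio was given no test.

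Within the chloroplast sum the same shift was seen as a change of composition. ciRNA22/ciRNA29 made up 62.6% ± 4.75 of it at combination and 62.1% ± 6.50 at heat, against 34.3% ± 2.09 at drought and 30.6% ± 3.16 in control (SD, n = 3 each). ciRNA55 made up 15.4% ± 3.34 at combination and 17.5% ± 3.94 at heat, against 38.0% ± 4.83 at drought and 44.6% ± 2.74 in control. By these sums ciRNA55 was the largest signal in control and in 2 of the 3 drought libraries. The sum adds ciRNA22 and ciRNA29, which are not separate measurements, so shares and ranks depend on it. In drought replicate 3 these entries had 618 and 592 FPKM singly, against 1072 for ciRNA55. ciRNA14/ciRNA15 held 12.4% ± 1.39 at combination, 10.6% ± 0.628 at heat, 19.8% ± 2.37 at drought and 17.5% ± 1.92 in control. ciRNA56/ciRNA57 held the least, 7.29% to 9.82% on average in the 4 treatments.

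Entries of the same sequence did not have the same values. ciRNA14 and ciRNA15 are identical over 561 bases, yet ciRNA14 over ciRNA15 was 1.14 ± 0.0545 at combination and 1.26 ± 0.0951 at heat, against 0.974 ± 0.112 at drought and 0.881 ± 0.0607 in control (SD, n = 3 each). The ratio was 1.10 to 1.37 at 38 °C and 0.811 to 1.09 at 26 °C, without overlap. The ciRNA14 share of the fragments of the pair had an exact Clopper-Pearson interval (95%) wholly above 50% in 6 of 6 libraries at 38 °C, and at 26 °C it was above in 1, below in 4 and included 50% in 1. These intervals cover counting error only. The separation was noticed after the values were seen, and it was given no test. The recovered fragments of both entries had the same fractional part within 0.01 in 12 of 12 libraries (not whole in 9), and were rounded for the intervals. How fragments that match both entries were divided is not given in the sources used here.

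The other identical pair behaved otherwise. ciRNA56 over ciRNA57 was above 1 in all 12 libraries, at 1.18 ± 0.0734 at combination, 1.31 ± 0.205 at heat, 1.11 ± 0.0514 at drought and 1.16 ± 0.0684 in control. The ciRNA56 share was above 50% beyond counting error in 11 of 12 libraries. In the nested pair, ciRNA29 over ciRNA22 was 1.04 ± 0.0399 at combination, 1.08 ± 0.0555 at heat, 1.01 ± 0.0558 at drought and 0.987 ± 0.112 in control. Its lowest and highest values were 0.867 and 1.13. ciRNA29 lies wholly within ciRNA22, and their recovered fragments had the same fractional part within 0.01 in 12 of 12 libraries (not whole in 9), so the entries are not separate measurements.

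**Figure D5:**
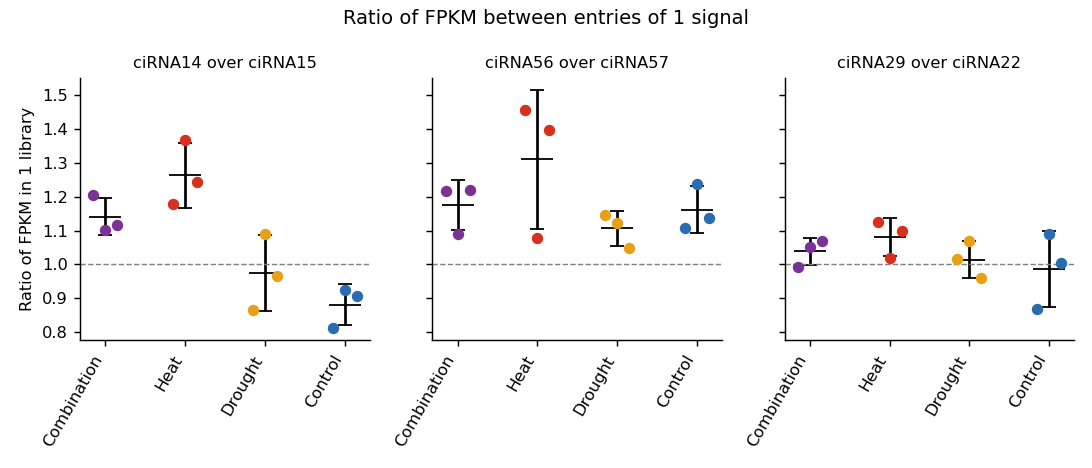
Ratio of FPKM between the entries of each joined signal in 1 library, with 1 point per library, a bar for the mean ± SD (n = 3) and a dashed line at 1. ciRNA14 over ciRNA15 is at 1.10 to 1.37 in the libraries at 38 °C (combination and heat) and at 0.811 to 1.09 in those at 26 °C (drought and control), while ciRNA56 over ciRNA57 is above 1 throughout.

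The entries most like ciRNA22/ciRNA29 over the 12 libraries, by Pearson's r of log2 values among entries tested outside the signal, were ciRNA56 (0.90), ciRNA57 (0.88) and circRNA275 of chromosome 6 (0.86). circRNA275 averaged 1.77 FPKM and was above 0 in 6 libraries. These points share their libraries and treatments, and r is given as a description.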

How the data were processed

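Circular RNA of tomato leaf was measured in 12 libraries, 3 for each of 4 treatments, and groups follow the labels. The deposited values are FPKM per entry and library, computed by the authors. The submitters' processing notes name cutadapt, FastQC, Bowtie2, TopHat and TopHat2. The caller of circles, the genome build and the laboratory steps of this assay are not given in the sources used here. Of 467 lines 6 hold no values and were left out. Small RNA and degradome files were not used.

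Members were the entries on the chloroplast chromosome, and members and lists were chosen with earlier results of these data known. Joining by position was planned, but the table has no coordinates, so entries of 1 chromosome with identical sequence or a shared run of 30 bases (either strand) were joined and their FPKM summed. The planned grouping by chloroplast gene was left out for the same reason. All members are named; values per library are given for the 4 signals and for the entries that passed a test, and like entries are the 3 with the highest Pearson's r.

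Comparisons were the 6 pairs of treatments, 38 °C vs 26 °C, water withheld vs irrigated, and the interaction of heat and drought. log2(FPKM + 0.0161), the smallest value above 0, was fitted for the 328 entries and 303 signals above 0 in at least 3 libraries with limma 3.58.1 (R 4.3.3), 1 mean per treatment, a mean-variance trend, Benjamini-Hochberg adjustment over the table for each comparison, 0.05 and two-sided. The fit had infinite prior degrees of freedom, so its p-values rest on the spread trend over the table and not on a member's own replicates. All 7 members passed the filter. The scripts were tested on simulated data. Python 3.11.15, pandas 2.3.3, numpy 2.4.6, scipy 1.17.1 and matplotlib 3.10.9 were used.

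Alternatives were pseudocounts of 0.1 and 1 FPKM, no filter, a minimum of 6 libraries, scaling by median ratios or by the nuclear sum, only the groups compared, replicate number as a block, no trend, other joining, the most abundant entry in place of a sum, and each library left out. Median ratios were taken over the entries above 0 in all 12 libraries, which are the 7 members themselves and 22 nuclear entries. Chosen after seeing the data were voom on recovered fragments, each signal's own spread, the exact tests of temperature and the share without circRNA48.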

Additional observations from a re-analysis of the deposited data

How the results depend on the processing

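The cause of the changes below was not tested. At drought the nuclear sum was in large part circRNA48, so scaling by it leaned on that entry there. In drought vs control, 1 chloroplast entry and 1 signal passed after scaling by the nuclear sum, and 1 entry with voom. In heat vs control, 1 signal passed under either scaling, and 0 entries and 0 signals with only the groups compared, without the trend or with own spread. In combination vs control, 1 signal passed under either scaling or with own spread, 1 entry and 0 signals with only the groups compared, 0 without the trend and 5 entries with voom. In heat vs drought, 1 signal passed with median ratios, and 0 entries and 0 signals with only the groups compared, without the trend or with own spread. In combination vs drought, 5 entries and 3 signals passed with the nuclear sum, 2 signals with only the groups compared, 5 entries and 3 signals with voom and 0 without the trend. In combination vs heat, 4 entries and 1 signal passed with voom, in the interaction 1 entry, and for 38 °C vs 26 °C 0 passed without the trend. Leaving out 1 library gave 1 to 3 signals for combination vs control and combination vs drought, 1 to 2 for heat vs drought and 2 to 3 for 38 °C vs 26 °C. Over all 328 entries, voom passed 3 for drought vs control, 12 for heat vs control and for combination vs control, 14 for heat vs drought, 13 for combination vs drought, 8 for combination vs heat, 1 for the interaction and 18 for 38 °C vs 26 °C. The nuclear sum passed 1 entry and 1 signal in all for drought vs control and 6 entries and 4 signals for combination vs drought. Over all signals voom passed 11 for combination vs drought and 5 for combination vs heat, either scaling 2 for heat vs control and 1 for combination vs control, and median ratios 3 for heat vs drought.

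For 38 °C vs 26 °C the sign turned under median ratios and under the nuclear sum for ciRNA14 (0.45 and 0.88), ciRNA15 (0.075 and 0.50) and ciRNA14/ciRNA15 (0.27 and 0.69), and under the nuclear sum for ciRNA55 (0.046). ciRNA14/ciRNA15 turned to 0.17 for heat vs control with median ratios, and for combination vs control to -0.023 without combination replicate 2 and -0.074 without control replicate 1, in a range up to 0.15. ciRNA55 turned to 0.064 and 0.68 for heat vs drought under these scalings. ciRNA56/ciRNA57 at 38 °C vs 26 °C passed under both scalings, with voom and with own spread. The call of ciRNA56 was lost with a pseudocount of 0.1, without the filter and when leaving out most single libraries (adjusted p = 0.0099 to 0.21 from limma). ciRNA22/ciRNA29 at 38 °C vs 26 °C stayed between 1.26 and 1.46 without each library. The chloroplast share, over entries above 0 in all 12 libraries, was 96.7% at combination, 97.1% at heat, 91.5% at drought and 92.3% in control. Without circRNA48 in the total it was 84.0% at drought. Without ciRNA55 it was 60.2% at drought and 74.2% in control, and without 1 library it was 67.9% to 73.5% at drought and 81.1% to 87.2% in control.

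No pairing of the samples by replicate number was seen over the 328 entries tested. Deviations of same-numbered libraries correlated at -0.13 to 0.13 (18 pairs, median 0.0038), those of other numbers at -0.15 to 0.17 (36 pairs). The median SD of these entries was 3.07 on the log2 scale, so this check cannot decide whether the samples were paired. With the replicate number as a block, 3 chloroplast entries and 2 signals passed for 38 °C vs 26 °C, ciRNA56 was lost (adjusted p = 0.066 from limma), and 2 entries passed for combination vs drought.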
